A study of Mus musculus with 6 samples.

Results

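Cholesterol synthesis and its control by SREBP2 were described in mouse liver through 26 genes. They were chosen by name from the pathway and not by their values, though earlier results of these data were known. The 26 were the control genes Srebf2, Scap, Insig1 and Insig2, 20 enzyme genes from Acat2 and Hmgcs1 to Dhcr7, and the sterol-responsive genes Mylip and Stard4. Each gene was read by all of its probe sets that carry exactly 1 gene symbol in the platform annotation, and 25 of the 26 had such a probe set, 55 in all, out of 18193 genes on the array. Acat2, the cytosolic thiolase gene that opens the pathway, was not among those 25 and is not analysed here. All 25 passed the filter on low intensity through at least 1 probe set, and 48 of the 55 probe sets did.

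The livers came from C57BL/6 mice that received AAV8, an adeno-associated virus vector that transduces mouse hepatocytes, by intravenous injection. The vector of the AAV8-Nfkbiz group expressed Nfkbiz, the gene of the nuclear IκB protein IκBζ, and the vector of the AAV8-luciferase control group expressed luciferase. Both groups were started on CDAHFD, a choline-deficient high-fat diet that models nonalcoholic fatty liver disease, 4 weeks after the vector and stayed on it for 4 weeks, so no group on ordinary chow enters the comparison. Livers were taken after perfusion with PBS to clear blood, and each group had 3 arrays, 1 per liver sample. The promoter in the vector, the age and sex of the mice, the hour of sampling and the feeding state are not stated in the labels, and hepatic sterol genes are known to follow feeding.

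Cholesterol is built from acetyl-CoA through mevalonate, isoprenoid diphosphates, squalene and lanosterol. SREBP2, encoded by Srebf2, is the membrane-bound transcription factor that switches these enzymes on together when sterols are low. SCAP escorts it from the endoplasmic reticulum to the Golgi for cleavage, and the INSIG proteins hold SCAP back when sterols are plentiful. Insig1 is itself a target of SREBP2, whereas Insig2 is less dependent on it and in liver is known to respond to insulin and feeding.

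Values are MAS5 intensities on a linear scale, with nearly equal 2% trimmed means on all arrays (between 495.4 and 496.5). The arrays still differed in the shape of their distributions. Their medians ran from 78.2 on the second Nfkbiz array to 95.2 on the first luciferase array. Their maxima ran from 52443 on the first luciferase array to 67210 on the second Nfkbiz array. Each difference is the mean of the Nfkbiz group minus that of the luciferase group in log2 units with limma's moderated standard error (SE), and errors of intensities are standard deviations (SD, n = 3). Intensities of different probe sets are not comparable as levels. The labels do not say that the arrays of a group came from separate cages or cohorts, so every p-value reflects only how far these 6 samples scatter. Nfkbiz probe set 1448728_a_at read 221, 230 and 180 in the luciferase livers and 4424, 4073 and 2006 in the Nfkbiz livers, in accord with the labels, while the other probe sets of Nfkbiz, 1417483_at and 1457404_at, had log2 differences of 0.30 and -0.89. The third luciferase array stood apart from the other 5 on the second principal component of all genes, at -45.1 against 3.11 to 21.1, and for several members the difference is also given without it. Hepatocyte markers were abundant in both groups, with 9 of 10 listed genes tested, all 9 above the filter, and summed intensities of 275268 to 325247 on luciferase and 262837 to 315665 on Nfkbiz arrays. Of 14 Kupffer cell and macrophage markers all 14 were above the filter, and their summed intensity was 42773 to 58548 on luciferase and 61668 to 77823 on Nfkbiz arrays, without overlap. Endothelial markers had positive differences in 6 of 6 tested (median 0.33), where 47.8% of all genes tested were positive. Stellate cell markers had negative differences in 7 of 8 (median -0.54). Of these 8, 3 were lower at an unadjusted p under 0.05 by limma, where 7% of all genes were lower. Of single markers, the hepatocyte gene Tat fell by 1.17 ± 0.16 on the log2 scale (limma adjusted p = 0.0218). Its list had 4 of 9 tested genes positive, 5 negative and -0.007 as the middle difference. Of these 9, Tat and Hnf4a (-0.35 ± 0.14) were the 2 lower at an unadjusted p under 0.05 by limma, where 7% of all genes were lower. The T and NK cell gene Gzma rose by 1.77 ± 0.28 on the log2 scale (limma adjusted p = 0.0427). In its list 5 of 7 tested genes were positive and 2 negative, with 0.66 as the middle difference. Each was the 1 gene of its list that passed. Whether these shifts in markers have a part in any value below was not tested.

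Promoter sequences are shown for the control genes with the smallest p-values and for comparison genes of the pathway, because SREBP2 acts on its targets through sterol regulatory elements near the start site, with the factor NF-Y bound at a neighbouring CCAAT word. They are RefSeq sequences of the mouse build GRCm38.p6, the 250 bases before the annotated start, written 5′ to 3′ on the strand of the gene. They were found for 22 of the 26 genes, while those of Fdps, Fdft1, Sqle and Stard4 were not used here. Capitals mark CCAAT and the word CACNCCA (N is any base), the inner part of the sterol regulatory element core TCACNCCAC, on either strand, where both can overlap. Srebf2 lies on the plus strand at chr15:82147019-82147268, Hmgcs1 on the plus strand at chr13:119690101-119690350, and Insig1 on the plus strand at chr5:28071162-28071411. Insig2 lies on the minus strand at chr1:121332590-121332839, the most upstream of its 3 annotated starts, and Tm7sf2 on the minus strand at chr19:6067851-6068100.
Srebf2: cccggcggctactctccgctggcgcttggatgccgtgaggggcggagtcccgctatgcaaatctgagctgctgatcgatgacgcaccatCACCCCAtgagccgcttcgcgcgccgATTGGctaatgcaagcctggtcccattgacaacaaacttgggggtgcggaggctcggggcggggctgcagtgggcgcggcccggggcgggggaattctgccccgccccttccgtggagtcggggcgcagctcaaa
Hmgcs1: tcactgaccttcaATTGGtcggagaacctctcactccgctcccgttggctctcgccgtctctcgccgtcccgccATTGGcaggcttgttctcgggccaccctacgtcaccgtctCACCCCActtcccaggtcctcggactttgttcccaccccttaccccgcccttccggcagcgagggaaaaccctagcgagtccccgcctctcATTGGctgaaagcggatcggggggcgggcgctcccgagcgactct
Insig1: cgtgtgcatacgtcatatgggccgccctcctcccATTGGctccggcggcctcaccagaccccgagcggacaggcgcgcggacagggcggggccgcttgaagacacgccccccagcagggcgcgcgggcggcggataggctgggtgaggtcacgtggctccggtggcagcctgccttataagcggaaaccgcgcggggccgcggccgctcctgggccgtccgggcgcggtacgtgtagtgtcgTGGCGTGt
Insig2: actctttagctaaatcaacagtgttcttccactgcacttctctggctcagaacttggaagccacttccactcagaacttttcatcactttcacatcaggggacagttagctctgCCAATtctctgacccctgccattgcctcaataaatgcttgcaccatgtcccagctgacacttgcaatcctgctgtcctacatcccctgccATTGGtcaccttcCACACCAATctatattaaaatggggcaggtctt
Tm7sf2: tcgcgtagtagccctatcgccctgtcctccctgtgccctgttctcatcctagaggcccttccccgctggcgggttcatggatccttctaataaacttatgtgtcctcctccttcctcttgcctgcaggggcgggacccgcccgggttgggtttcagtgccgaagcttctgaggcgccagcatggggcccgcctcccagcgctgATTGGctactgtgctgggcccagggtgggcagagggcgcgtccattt

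In these windows, searched from 250 bases before to 50 bases after the start, the full core TCACNCCAC was found in Hmgcs1, beginning at position -137, and in none of the other 27 windows of the 22 genes, which is 3.57% of the members' windows against 1.24% of the 32851 windows of all genes. The shorter CACNCCA, searched after the matches of the longer word had been seen, was in 7 of 28 windows (25%, against 18.4% of all), those of Srebf2 at position -161 from the start, Hmgcs1, Insig1 at position -8 on the opposite strand, Msmo1, Acat2 and 2 of the 3 Insig2 windows. The most upstream Insig2 window has it at position -33, overlapping a CCAAT word. CCAAT was present in 20 of 28 windows (71.4%, against 37.4% of all) and in 20 of the 22 genes, and the Sp1-type word GGGCGG in 23 of 28 (82.1%, against 35.7% of all). The windows of all genes include non-coding genes, and a match is a description of the letters only.

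None of the 25 genes passed the test over all genes, while 30 of 13312 genes did (0.225%, limma with Benjamini-Hochberg adjustment at 0.05). At an unadjusted p under 0.05 there were 3 members, and all 3 were control genes. Insig2 was the 1 higher, where 5.03% of all genes were higher at that p, and Srebf2 and Insig1 were the 2 lower, where 7% were lower. The groups did not overlap for 2 members with higher values on the Nfkbiz arrays, Insig2 and Tm7sf2 (8% of all genes), and for 1 with lower values, Srebf2 (10% of all genes). These counts are near the shares over all genes. The median log2 difference of the 25 was 0.06, against -0.02 over all genes tested, and 16 of the 25 differences were positive. In whole liver, fewer cells of a type and less RNA per cell cannot be told apart.

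**Figure D1:**
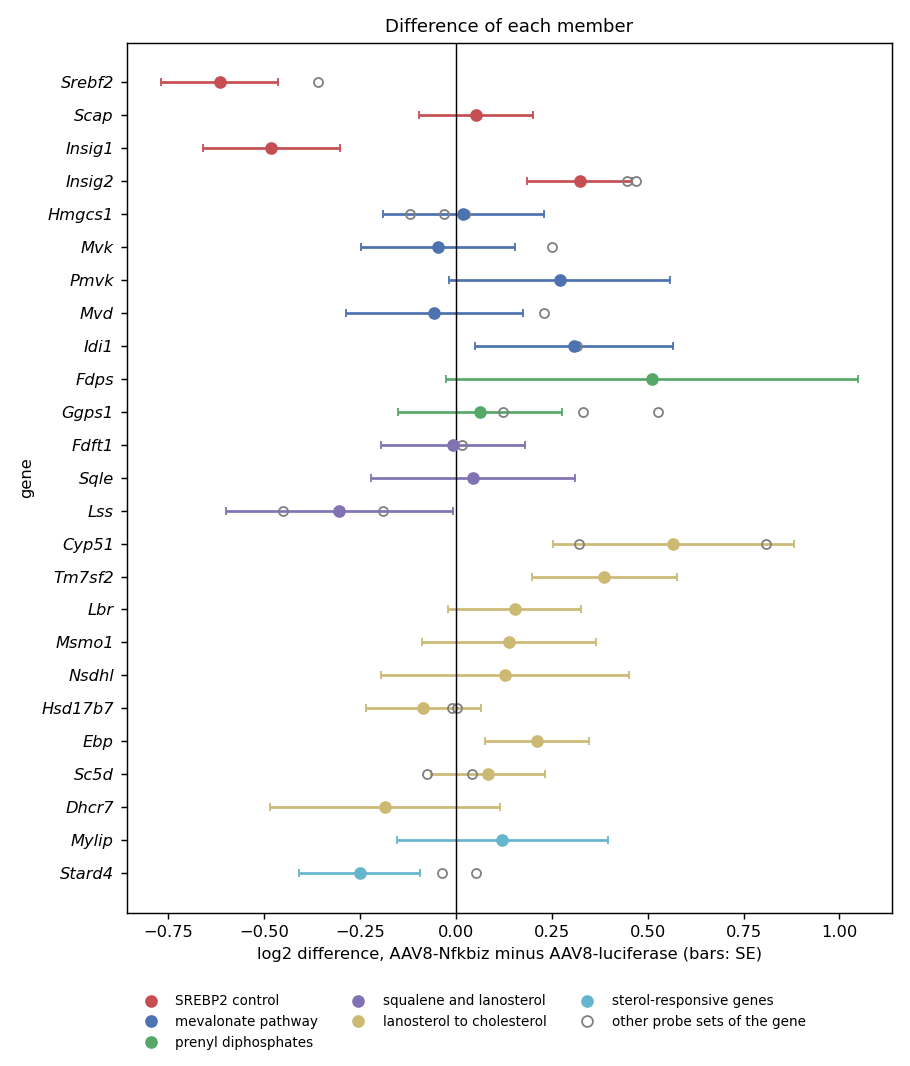
Log2 difference between the AAV8-Nfkbiz and AAV8-luciferase groups (3 arrays each) for the 25 measured genes, in the order of the pathway and coloured by role. Filled points with bars are the brightest probe set of each gene with its SE, open points the other tested probe sets of that gene. Among the filled points Srebf2 and Insig1 lie lowest, at -0.62 and -0.48, and the enzyme genes lie between -0.30 and 0.57. Open points of enzyme genes reach from -0.45 (Lss) to 0.81 (Cyp51).

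Srebf2, the gene of SREBP2, had the smallest p-value of the set. Its probe set 1452174_at read 614, 615 and 631 in the luciferase group and 433, 357 and 427 in the Nfkbiz group. All 3 Nfkbiz arrays were below all 3 luciferase arrays, which lay within 1.03-fold of each other. The means were 619.8 ± 9.78 and 405.9 ± 42.3 (SD, n = 3), with a log2 difference of -0.62 ± 0.15 (SE), a 0.652-fold level by the means of log2 values, with a 95% interval from -0.95 to -0.28 (limma unadjusted p = 0.00225, adjusted p = 0.182 over all genes). By p-value it stood at place 163 of 13312 genes. The second probe set, 1426744_at, read 508, 487 and 654 against 413, 454 and 408, again without overlap, for a log2 difference of -0.36 ± 0.17 (limma unadjusted p = 0.0654, adjusted p = 0.5 over 27022 probe sets). Both probe sets thus read lower on every Nfkbiz array, and neither passed the adjusted threshold.

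Srebf1, the gene of the paralogous factor SREBP1 that drives fatty acid synthesis, read lower in the same livers, with a log2 difference of -0.65 ± 0.16 (limma adjusted p = 0.182). Within each array the ratio of the Srebf2 to the Srebf1 probe set was 0.161, 0.147 and 0.116 in the luciferase group and 0.173, 0.111 and 0.154 in the Nfkbiz group, and the ranges overlap. The log2 difference of that ratio was 0.04 ± 0.24 (SE from both groups' variances, exact two-sided permutation p = 0.8), so a change of Srebf2 relative to Srebf1 was not detectable with 3 arrays a group.

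Scap, the escort protein gene, read 1842, 2411 and 2504 on the luciferase and 2490, 2356 and 2113 on the Nfkbiz arrays. The groups overlapped fully and the log2 difference was 0.05 ± 0.15 (95% interval -0.28 to 0.38). Its other probe set, 1442885_at, was below the filter, with means of 12.1 and 16.

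The INSIG genes, whose products both retain SCAP, had differences of opposite sign. Insig1 read 6245, 5560 and 5931 in the luciferase group and 3668, 5746 and 3589 in the Nfkbiz group. The first and the third Nfkbiz array were below every luciferase array, and the second lay among them. The log2 difference was -0.48 ± 0.18 (limma unadjusted p = 0.0221, adjusted p = 0.328), and it ran from -0.70, without the second Nfkbiz array, to -0.36 with 1 array left out.

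Insig2 probe set 1417981_at read 6639, 7998 and 8142 in the luciferase group and 8347, 10420 and 9716 in the Nfkbiz group, higher on every Nfkbiz array. Its log2 difference was 0.32 ± 0.14 (limma unadjusted p = 0.0392, adjusted p = 0.383). Probe set 1417980_a_at also showed no overlap, with 4839, 5090 and 6175 against 6449, 8099 and 7727 and a log2 difference of 0.47 ± 0.14 (limma adjusted p = 0.303 over 27022 probe sets). The third, 1417982_at, overlapped and had a difference of 0.45 ± 0.25. All 3 probe sets of Insig2 thus had a positive difference, and none passed the adjusted threshold.

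The within-array ratio of the Insig2 to the Insig1 probe set, computed after the values of both had been seen, was 1.06, 1.44 and 1.37 in the luciferase group and 2.28, 1.81 and 2.71 in the Nfkbiz group. It was higher on all 3 Nfkbiz arrays, by 0.80 ± 0.22 log2 units (SE), and the exact two-sided permutation p of 0.1 is the smallest that 3 against 3 allows. Because the pair was taken after its values were seen, that p-value lends no further support to the difference of either gene. The ratio compares probe set signals and does not give the ratio of the transcripts.

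**Figure D2:**
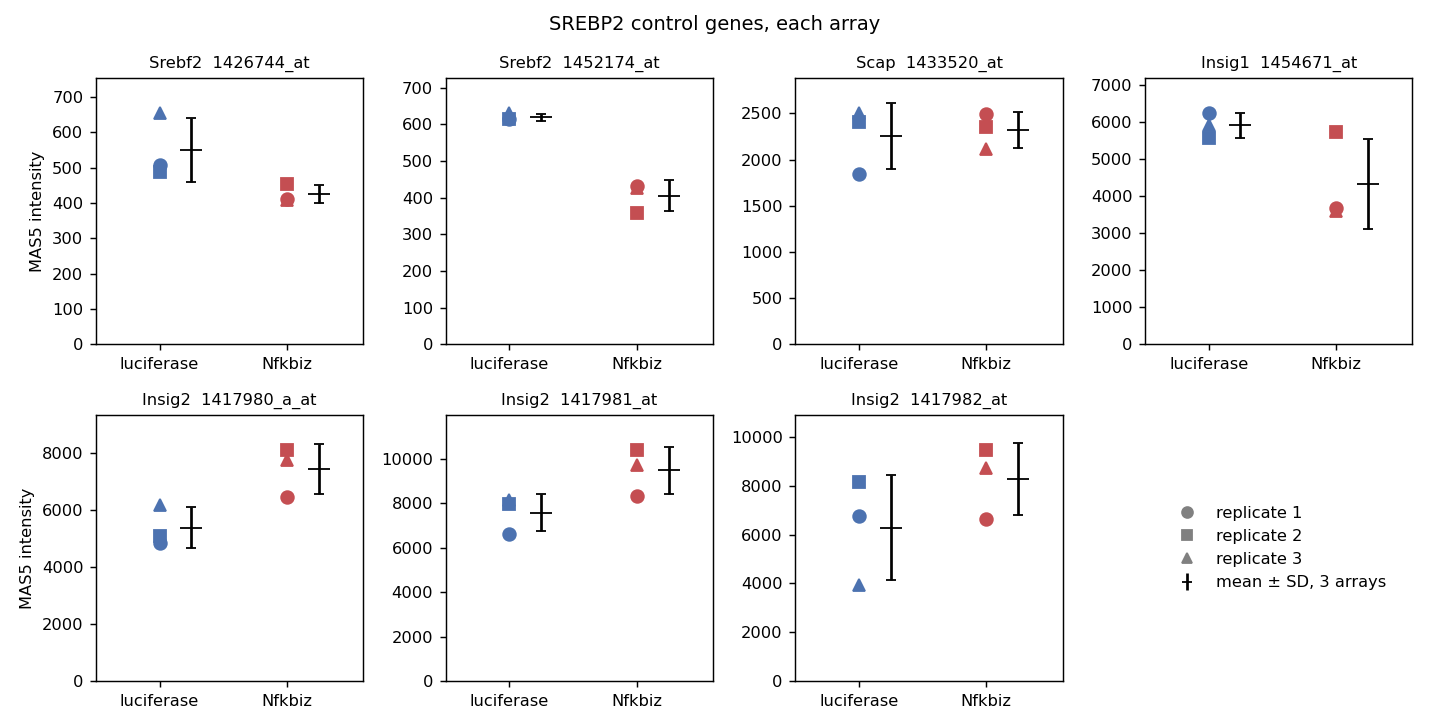
MAS5 intensity of the 7 tested probe sets of Srebf2, Scap, Insig1 and Insig2 on each of the 6 arrays, with the marker shape giving the replicate number and the black bar the mean ± SD of 3 arrays. Both Srebf2 probe sets are lower on all Nfkbiz arrays, and in the Insig1 panel the second Nfkbiz array sits at 5746, among the luciferase values of 5560 to 6245.

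The enzyme genes of the mevalonate pathway had small differences with wide intervals. Hmgcs1, the cytosolic HMG-CoA synthase gene, read 13429, 10940 and 11438 on the luciferase and 8679, 16726 and 12038 on the Nfkbiz arrays. The Nfkbiz arrays held both its lowest and its highest value, and the log2 difference was 0.02 ± 0.21 (95% interval -0.45 to 0.49). Its other 3 tested probe sets lay between -0.12 and 0.02. Mvk, the mevalonate kinase gene, read 644, 486 and 560 against 417, 669 and 571 (difference -0.05 ± 0.20). Its second probe set had a difference of 0.25 ± 0.45.

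Pmvk, which adds the next phosphate, read 772, 740 and 533 in the luciferase group and 528, 1294 and 781 in the Nfkbiz group (0.27 ± 0.29). Mvd, the decarboxylase gene that yields isopentenyl diphosphate, read 530, 349 and 330 against 300, 448 and 403 (-0.06 ± 0.23), with 0.23 ± 0.31 at its second probe set. Idi1, the isomerase gene, read 6881, 5539 and 4032 against 4587, 9409 and 6755 (0.31 ± 0.26), and its second probe set gave 0.32. The Idi1 difference was 0.055 without the second and 0.57 without the first Nfkbiz array. Without the third luciferase array Idi1 was at 0.10 and Pmvk at 0.10. In each of these 3 genes the second Nfkbiz array was the highest and the first the lowest of its group.

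At the branch point of the isoprenoids, Fdps, the farnesyl diphosphate synthase gene, had the widest spread of the set. It read 8440, 7984 and 1999 on the luciferase and 4169, 13478 and 6938 on the Nfkbiz arrays. The third luciferase array was 4.22-fold below the highest of its group, and the log2 difference of 0.51 ± 0.54 was -0.17 without that array. Ggps1, whose product makes the geranylgeranyl donor for protein prenylation, read 329, 326 and 220 against 271, 340 and 291 (0.06 ± 0.21), its other 3 probe sets lay between 0.12 and 0.53, and without the third luciferase array the difference was -0.13.

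From farnesyl diphosphate to lanosterol the 3 enzyme genes had differences around 0 or below. Fdft1, the squalene synthase gene, read 6411, 4757 and 4960 against 4408, 7010 and 4812, with means of 5376 and 5410 but a slightly negative log2 difference (-0.01 ± 0.19). Sqle, squalene epoxidase and a control step of the pathway, read 3029, 1614 and 1640 against 1563, 2768 and 2030 (0.04 ± 0.27). In Sqle the first luciferase and the second Nfkbiz array stood above the other 4.

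Lss, lanosterol synthase, read 945, 650 and 784 against 417, 1056 and 581. Its log2 difference was -0.30 ± 0.30, the lowest of the 19 enzyme genes, and its other probe sets gave -0.19 and -0.45. The groups overlapped at all 3 probe sets, and the difference was -0.67 without the second and -0.00086 without the first Nfkbiz array.

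Among the 9 genes from lanosterol to cholesterol, 7 had a positive difference and none passed. Cyp51, the lanosterol demethylase gene, read 3235, 2515 and 1562 on the luciferase and 2309, 5382 and 3320 on the Nfkbiz arrays, a log2 difference of 0.57 ± 0.31 (limma unadjusted p = 0.101, adjusted p = 0.509). It was the highest difference of the set, and the groups overlapped. Its other probe sets gave 0.32 ± 0.28 and 0.81 ± 0.34, the latter at an unadjusted p of 0.0381 by limma (adjusted p = 0.443 over 27022 probe sets). Without the third luciferase array the difference of Cyp51 was 0.28, and without the second Nfkbiz array it was 0.25.

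The next reduction has 2 enzymes, one of them encoded by Tm7sf2 and the other by Lbr, which is also the lamin B receptor of the inner nuclear membrane. Tm7sf2 read 2951, 3000 and 2808 in the luciferase group and 3209, 5355 and 3233 in the Nfkbiz group, without overlap. Its log2 difference was 0.39 ± 0.19 (limma unadjusted p = 0.0678, adjusted p = 0.45), and 0.14 without the second Nfkbiz array, which was far above the other 5. Lbr read 1075, 952 and 686 against 981, 1010 and 973 (0.15 ± 0.17), where the Nfkbiz arrays lay inside the luciferase range, and without the third luciferase array the difference was -0.034.

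Msmo1, the methylsterol oxidase gene, read 6487, 5867 and 4630 against 5371, 9092 and 4809 (0.14 ± 0.23), and Nsdhl, the sterol dehydrogenase gene of the same demethylation, 3482, 2868 and 1854 against 2071, 5035 and 2315 (0.13 ± 0.32). Both were highest on the second Nfkbiz array and lowest, of all 6, on the third luciferase array. Without the latter the difference was -1.3e-05 for Msmo1 and -0.13 for Nsdhl. Hsd17b7, the reductase gene that ends each demethylation round, read 1520, 1310 and 1793 against 1305, 1500 and 1529 (-0.09 ± 0.15). Its other tested probe sets gave -0.01 and 0.00.

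Ebp, the sterol isomerase gene, read 8934, 9908 and 10334 against 11003, 12983 and 9923 (0.21 ± 0.13). Sc5d, the desaturase gene of the next step, read 12099, 12326 and 11102 against 10806, 15537 and 11729 (0.08 ± 0.15). Dhcr7, the reductase gene at the end of the route through dehydrocholesterol, read 1325, 988 and 1758 against 708, 1655 and 1336 (-0.18 ± 0.30). Of these 3, Ebp was the 1 with all Nfkbiz arrays above the luciferase mean of 9725.

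The remaining 2 members are genes that sterols control without being enzymes of the route. Mylip, a ubiquitin ligase gene induced by LXR whose product removes lipoprotein receptors, read 1244, 1395 and 597 against 1142, 1194 and 976. The third luciferase array was the lowest, and the log2 difference of 0.12 ± 0.28 was -0.26 without it. Stard4, a sterol carrier gene induced by SREBP2, read 2041, 1625 and 1953 against 1625, 1805 and 1309 (-0.25 ± 0.16), with -0.04 and 0.05 at its other probe sets.

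The 95% intervals bound what these arrays leave possible for the enzyme genes. All 19 intervals included 0, and 17 lay within 1 log2 unit on either side. The exceptions were Fdps, reaching 1.70, and Cyp51, reaching 1.26. Within 0.5 log2 units lay 5 of the 19. A missed threshold therefore does not show that the groups were alike.

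The enzyme genes differed between arrays of the same group. Between the groups their median absolute difference was 0.14 log2 units, against 0.20 over all genes tested. A spread of single arrays and a difference of group means are unlike measures and were not compared by a test. Within the Nfkbiz group the second array was the highest for 18 of 19 enzyme genes, the exception being Hsd17b7, where over all genes tested it was the highest of its group for 30%. Over all 6 arrays it was the highest for 14 of the 19 (16.5% of all genes), and its median deviation from the gene means was 0.45 log2 units. The first Nfkbiz array was the lowest of all 6 for 10 of the 19 (14.5% of all genes), with a median deviation of -0.36. The third luciferase array was the lowest for another 8 (21.1% of all genes). The enzyme genes share these 6 arrays and are not independent of each other. The second Nfkbiz array also had the lowest median intensity of the 6, 78.2, and the highest maximum, 67210. On the first principal component of all genes it lay furthest out, at 37.8. The hepatocyte markers Alb, Ttr, Apoa1, Apoa2, Cyp2e1 and Ass1 were highest of their group on it too, while Cps1, Hnf4a and Tat were not. Whether such traits of the array have a part in the enzyme values was not tested.

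The luciferase group also had arrays that differed in the enzyme genes, though its median spread was smaller. Its first array was the highest of its group for 14 of 19 enzyme genes (39.7% of all genes), with a median deviation of 0.19, and the third had a median deviation of -0.25. The highest array exceeded the lowest by a median of 1.45-fold within the luciferase group and 1.77-fold within the Nfkbiz group, against 1.36-fold and 1.32-fold over all genes tested. The median over all 25 members had an SD of 0.24 log2 units between single arrays of a group. The median of the members' differences between the groups was 0.06. These are unlike measures and were not compared by a test. Leaving out the second Nfkbiz array gave a median of -0.11, and leaving out the third luciferase array -0.03.

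**Figure D3:**
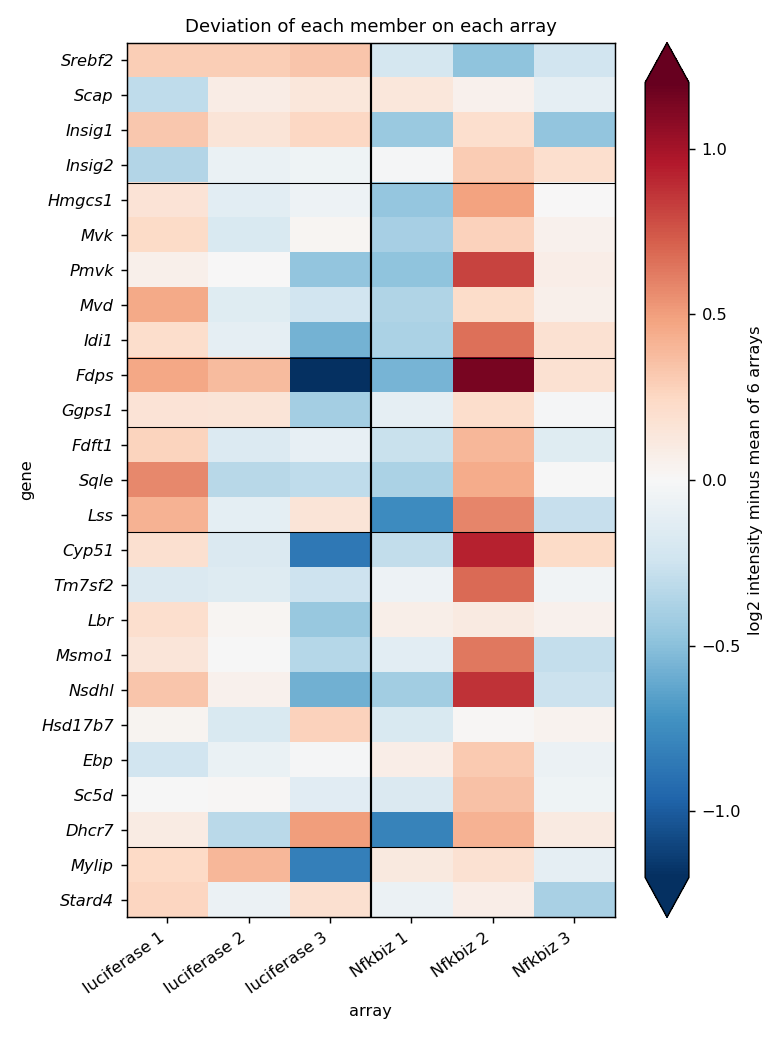
Log2 intensity minus the mean of 6 arrays for the 25 measured genes (rows, in pathway order) on each array (columns), with the colour scale ending at 1.2 units on either side, which Fdps on the third luciferase array exceeds at -1.61. The column of the second Nfkbiz array is above the mean for all 19 enzyme genes, and in the Srebf2 row (probe set 1452174_at) the same array is the lowest, at -0.49, which the second Srebf2 probe set does not share (454 there, the highest of the Nfkbiz group).

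On the second Nfkbiz array, where most enzyme genes were highest, the probe sets of Srebf2 differed in their order. Probe set 1452174_at had its lowest value of the 6 there, 357, whereas 1426744_at read 454, the highest of its group. Insig1, which SREBP2 induces, read within the luciferase range on that array. On the first Nfkbiz array, where Hmgcs1, Mvk, Pmvk, Mvd and Lss were at their lowest, the Srebf2 probe sets read 433 and 413 and Insig1 3668. The order of the Nfkbiz arrays in Srebf2 thus depends on the probe set, and no relation to the enzyme genes was tested.

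**Figure D4:**
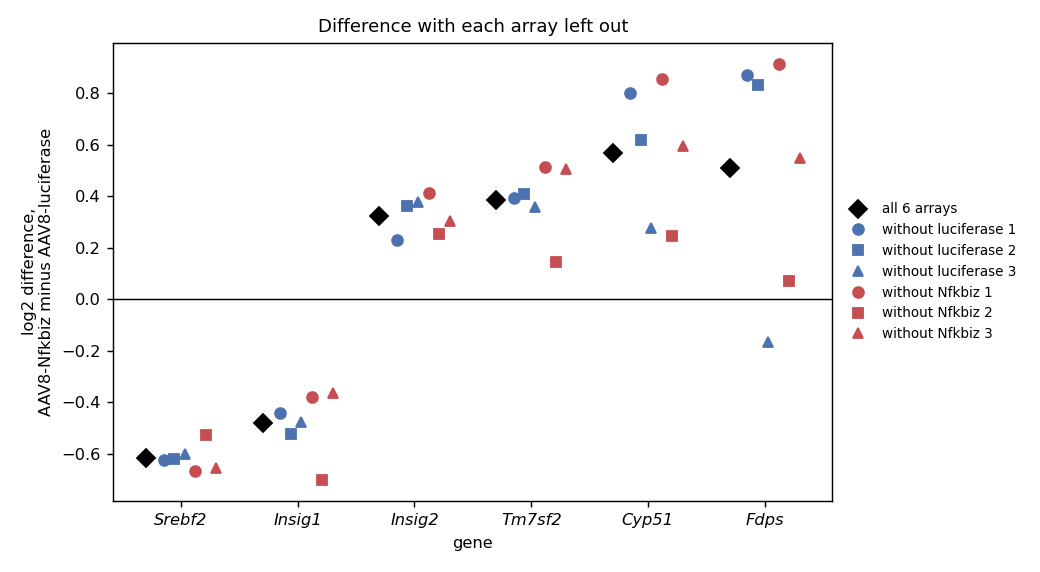
Log2 difference between the groups for 6 members with all arrays (black diamonds) and with each array left out in turn (blue, a luciferase array; red, an Nfkbiz array; shape, the replicate number). Srebf2 stays between -0.67 and -0.53, Insig1 between -0.70 and -0.36 and Insig2 between 0.23 and 0.41, while Fdps ranges from -0.17 to 0.92.

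Genes around the pathway were counted from lists of its regulators and branches. Of 12 tested genes of SREBP processing and of enzyme degradation, none passed and none reached an unadjusted p under 0.05 by limma, and 10 had a negative difference (median -0.09). Erlin2, a scaffold gene of sterol-dependent degradation, had the smallest p with -0.27 ± 0.14, followed by the COPII coat genes Sec23a (-0.24 ± 0.14) and Sec24d (-0.22 ± 0.15). Of 14 genes that use isoprenoids, none passed, and 2 were higher and 3 lower at an unadjusted p under 0.05, where 5.03% of all genes were higher and 7% lower. Among them were Icmt, the methyltransferase gene of prenylated proteins, at -0.65 ± 0.17 and Nus1, a dolichol synthesis gene, at -0.45 ± 0.16, and Trit1, a tRNA prenyltransferase gene, at 0.40 ± 0.15 (limma adjusted p-values from 0.193 to 0.326).

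Sterol export and transport genes had no calls either. Of 7 tested genes of the LXR arm, 3 were lower at an unadjusted p under 0.05 by limma (7% of all genes) and none passed. They were the biliary sterol transporter genes Abcg8 (-0.53 ± 0.19) and Abcg5 (-0.43 ± 0.18) and the receptor gene Rxra (-0.40 ± 0.16), with limma adjusted p-values from 0.305 to 0.383. Of 13 intracellular sterol transport and ester genes, 3 were lower at that p (7% of all genes) and none passed, namely the lysosomal exporter gene Npc1 (-0.50 ± 0.14), the oxysterol-binding protein gene Osbp (-0.50 ± 0.15) and Gramd1c (-0.43 ± 0.14), with limma adjusted p-values from 0.196 to 0.277.

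On the acetyl-CoA side, 2 of 6 tested genes were lower at an unadjusted p under 0.05 by limma (7% of all genes) and none passed. They were Acly, which makes cytosolic acetyl-CoA from citrate (-0.46 ± 0.15), and Aacs, which activates acetoacetate for sterol and fatty acid synthesis (-0.70 ± 0.24). The fatty acid synthesis genes driven by SREBP1 held the only call among these pathway lists. Of 13 tested, 1 passed over all genes, Fasn, the fatty acid synthase gene, which fell by 1.33 ± 0.21 on the log2 scale (limma adjusted p = 0.0423), and 6 were lower at an unadjusted p under 0.05 (7% of all genes). Their median was -0.40, with 12 of 13 negative, beside 0.08 for the 19 cholesterol enzyme genes with 6 negative. The lists were not compared by a test.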

How the data were processed

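Liver RNA was measured on 6 Affymetrix arrays, 3 per group, from 100 ng of total RNA per the labels' protocols. The deposited values are signal intensities on a linear scale made with MAS5, per the submitters' processing notes, and their trimmed means, nearly equal on all arrays, show a scaling per array. The MAS5 version is not given in the sources used here. Groups came from the sample titles. Probe sets were named through the platform annotation: of 45037, 34945 had 1 symbol, 932 several and 9160 were not listed. All 55 probe sets of the members kept their symbol in a RefSeq table through Entrez identifiers. A gene was read by its brightest probe set over all 6 arrays, after log2 transformation with no pseudocount, and genes in the lowest 40% of probe sets by mean (intensity 47.4) were left out, leaving 13312. The same fit was run over 27022 probe sets. Suffixes _s_at and _x_at (in Hmgcs1, Fdft1, Lss and Hsd17b7) mark probe sets that can also match related transcripts.

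Groups were compared with limma 3.58.1 (lmFit, eBayes with an intensity trend, two-sided, Benjamini-Hochberg over all genes) in R 4.3.3, tested on simulated data. The number of arrays limits the precision. The members, lists and alternatives were chosen with earlier results of these data known. The text names every measured member, Nfkbiz, and up to 3 genes of each further list by smallest p. Srebf1 and the shorter promoter word were added after values were seen. Figures were drawn with matplotlib 3.10.9. Alternatives covered normalization, pseudocount, filter, choice of probe set, variance prior, array weights, pairing and leaving out each array.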

Additional observations from a re-analysis of the deposited data

How the results depend on the processing

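Under every alternative run, 0 of the measured members passed the adjusted threshold by limma, while 0 (without the variance trend) to 62 (with array weights) of all genes did, against 30. At an unadjusted p under 0.05 there were 3 members in the analysis reported, 1 after median centring or without the variance trend, and 2 to 6 with 1 array left out. The median member difference of 0.06 ran from -0.11 to 0.17 with 1 array left out. It was -0.024 with array weights and 0.18 with the most variable probe set. With the most variable probe set 20 members were above the filter. No pairing of the arrays by replicate number was seen over all genes, though these values cannot exclude one. Same-numbered arrays had deviations correlated at -0.06, 0.07 and -0.03 across 13312 genes, and 2 of 6 arrays correlated best with their own number. With the replicate number as a block, 0 members passed, 4 reached an unadjusted p under 0.05, the median stayed at 0.06, and 27 of all genes passed.

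Cyp51, Ebp, Idi1, Insig1, Insig2, Lss, Srebf2 and Tm7sf2 kept their sign under every alternative, Lss at -0.00086 without the first Nfkbiz array. The adjusted p of Srebf2 ran from 0.116 to 0.411. The signs that changed belonged to differences that did not pass in either case, and the cause was not tested. With array weights the differences were -0.064 for Ggps1, -0.055 for Hmgcs1, -0.094 for Mylip, -0.094 for Nsdhl and -0.011 for Sqle. After loess normalization Hmgcs1 was at -0.053, Mvd at 0.0047 and Mvk at 0.0087, and after quantile normalization at -0.046, 0.00083 and 0.0068. With the mean of probe sets they were at -0.062, 0.087 and 0.10. After median centring Fdft1 was at 0.025, and with the most variable probe set Mvd was at 0.23, Mvk at 0.25 and Stard4 at 0.051. Leaving out 1 array gave ranges across 0 for Dhcr7 (-0.44 to 0.17), Fdft1 (-0.21 to 0.13), Fdps (-0.17 to 0.92), Ggps1 (-0.13 to 0.16), Hmgcs1 (-0.22 to 0.26), Hsd17b7 (-0.20 to 0.030), Lbr (-0.034 to 0.29), Msmo1 (-0.14 to 0.32), Mvd (-0.18 to 0.16), Mvk (-0.20 to 0.14), Mylip (-0.26 to 0.35), Nsdhl (-0.27 to 0.37), Pmvk (-0.066 to 0.58), Sc5d (-0.072 to 0.19), Scap (-0.086 to 0.14) and Sqle (-0.17 to 0.34).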
